A study of Mus musculus with 6 samples.

Results

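The miRNAs described here are 6 mature miRNAs that come from the introns of 3 genes. mmu-miR-204-5p and mmu-miR-204-3p are the 2 arms of a hairpin in an intron of Trpm3, mmu-miR-211-5p is its close relative from an intron of Trpm1, and mmu-miR-1298-5p, mmu-miR-448-3p and mmu-miR-1264-3p come from hairpins in introns of Htr2c. They were chosen by name, and each sequence that the authors annotated with 1 of these names was counted as a form of it. This gave 6 of the 782 mature miRNAs with reads and 166 of the 109434 sequences of the table, of which 165 were above 0 in at least 1 sample.

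MicroRNAs guide Argonaute (Ago) proteins to mRNAs, mainly through the seed at positions 2 to 8 of their 5′ end. An intronic miRNA is cut out of the transcript of its host gene, so its level can follow that of the host. Trpm3 and Trpm1 encode cation channels and Htr2c encodes the serotonin 2C receptor, and Trpm3 and Htr2c are known for high expression in the choroid plexus, the ciliated epithelium that secretes the cerebrospinal fluid. miR-204 is also made in other cells of the brain and in the eye, so it does not mark the choroid plexus alone. None of the other miRNAs is taken here as a marker of the choroid plexus alone.

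Short RNAs bound to Ago proteins (R-sRNAs) were sequenced from the brains of 3-month-old male mice on a C57BL/6J background. The WT group held 3 control mice. The Tau tg group held 3 mice with a transgene for human tau45-230, a fragment of tau, driven by the Thy 1.2 promoter, which is active in neurons. The sample labels named hippocampus, the deposited protocol named cortex and hippocampus together, and neither named the choroid plexus. Levels are given in RPM, reads scaled by the authors to a common library size, where 1 read was worth 0.142 RPM in the deepest sample and 0.917 RPM in the shallowest. A legend of the study gives more tau samples than the labels list.

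The seed is the stretch that pairs with targets, and it shows which of the 6 miRNAs are related. The mature sequences, from RefSeq with the GRCm38.p6 build, are written 5′ to 3′ with positions 2 to 8 in capitals, since the forms described further down are read against them.
mmu-miR-204-5p: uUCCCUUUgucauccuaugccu
mmu-miR-211-5p: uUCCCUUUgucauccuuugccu
mmu-miR-204-3p: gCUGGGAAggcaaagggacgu
mmu-miR-1298-5p: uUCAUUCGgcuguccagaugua
mmu-miR-448-3p: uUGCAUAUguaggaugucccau
mmu-miR-1264-3p: cAAAUCUUauuugagcaccugu
mmu-miR-204-5p and mmu-miR-211-5p shared their seed and 21 of 22 bases, and the single difference was A17U, counted from 1 at the 5′ end of mmu-miR-204-5p. The other 4 seeds differed from it and from each other. No read annotated as mmu-miR-204-5p stopped before position 17, so 0 of its sequences could have come from either miRNA.

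The hairpin of Mir204 is shown because both of its arms were found in Ago. Its 68 nt lie at chr19:22750605-22750672 on the plus strand of GRCm38, in intron 6 of a Trpm3 transcript with 27 exons, and the arms are in capitals, the 5p arm first.
Mir204: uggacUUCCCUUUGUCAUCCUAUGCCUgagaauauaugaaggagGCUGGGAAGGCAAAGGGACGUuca
Mir211 lies at chr7:64205806-64205911 in intron 6 of a Trpm1 transcript with 27 exons. On chromosome X, Mir1264 at chrX:147010601-147010686 and Mir1298 at chrX:147064905-147065002 lie in intron 3 of an Htr2c transcript with 7 exons, 54.2 kb apart, and Mir448 at chrX:147158210-147158321 lies in intron 5, 93.2 kb further on. Each hairpin has the strand of its host, and 0 host transcripts had an exon over a hairpin. Mir764 and Mir1912 share intron 3 of Htr2c with Mir1264, so 5 hairpins fall within 156 kb of this gene.

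The libraries held between 998248 reads in WT 3 and 6879551 in Tau tg 1, and the next deepest was Tau tg 3 with 2358928. A floor of 3 reads was worth from 0.427 RPM in Tau tg 1 to 2.75 RPM in WT 3. Between 82.7% and 92.4% of RPM were annotated as miRNA. Tau tg 1 therefore gave the most precise values and the most rare forms: 150 of the 165 sequences were above 0 in it, against 41 in Tau tg 2 and between 49 and 81 in the others. No genotype was checked, since the table holds no measurement of the transgene.

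mmu-miR-204-5p was the main miRNA of the set and held rank 51 of 782 by mean RPM. It measured 1788, 1892 and 4824 RPM in WT 1, WT 2 and WT 3 and 8110 (57000 reads), 1953 and 3695 RPM in Tau tg 1, Tau tg 2 and Tau tg 3. WT 1, WT 2 and Tau tg 2 formed the low end, WT 3, Tau tg 3 and Tau tg 1 the high end, and the groups overlapped. The group means were 2835 ± 1724 RPM (WT) and 4586 ± 3174 RPM (Tau tg; SD, n = 3 each). The log2 fold change, Tau tg over WT, was 0.61 ± 0.47 (SE) and did not pass the test (limma on log2(RPM + 1), unadjusted p = 0.214, adjusted p = 0.896 over 689 miRNAs). Without Tau tg 1 it was 0.08. In whole tissue, fewer cells of a type and less RNA per cell cannot be told apart.

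mmu-miR-204-3p, the other arm of the hairpin, was much less abundant, with 92.3, 4.75 and 49.5 RPM in the WT samples and 229, 110 and 105 RPM in the Tau tg samples. Every Tau tg value lay above every WT value, which held for 7.42% of the 472 miRNAs above 0 in all 6 samples. WT 2 had only 7 reads of this arm, and the highest WT sample came close to the lowest Tau tg sample. The means were 48.9 ± 43.8 and 148 ± 70.2 RPM (SD, n = 3 each). The log2 fold change was 2.21 ± 0.87 with a limma unadjusted p of 0.0215 and an adjusted p of 0.896, and it was 1.02 without WT 2.

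mmu-miR-211-5p was near the limit of detection. It had 0, 2 and 2 reads in the WT samples and 3, 6 and 11 reads in the Tau tg samples, that is 0, 1.36 and 1.84 RPM against 0.427, 5.02 and 4.50 RPM. Only Tau tg 2 and Tau tg 3 were above the floor of 3 reads. Its log2 fold change of 0.94 (limma adjusted p = 0.896) depended on the pseudocount, with 0.42 for a pseudocount of 5 RPM and 1.82 for 0.1 RPM, and gives no size of change at this level.

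Among the miRNAs of Htr2c, mmu-miR-1298-5p was the most abundant, at rank 157 of 782. It measured 90.9, 180 and 697 RPM in the WT samples and 972, 349 and 675 RPM in the Tau tg samples. WT 3 fell within the Tau tg range while WT 1 and WT 2 were below it. The means were 323 ± 327 and 665 ± 312 RPM (SD, n = 3 each), with a log2 fold change of 1.44 ± 0.60 (limma unadjusted p = 0.0293, adjusted p = 0.896). The value was 1.1 without Tau tg 1, 0.79 without WT 1 and 2.25 without WT 3 (adjusted p = 0.177 by limma in the last case).

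mmu-miR-448-3p measured 0.468, 28.5 and 89.0 RPM in the WT samples and 312, 0.836 and 120 RPM in the Tau tg samples. WT 1 and Tau tg 2 had 1 read each, so both groups ran from the floor upwards. The log2 fold change was 1.39 ± 1.66 (limma adjusted p = 0.896). Its sign depended on single libraries, with -0.32 when WT 1 was left out, -0.08 when Tau tg 1 was, and 3.63 when Tau tg 2 was.

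mmu-miR-1264-3p measured 4.22, 3.39 and 31.2 RPM in the WT samples and 61.6, 0 and 41.3 RPM in the Tau tg samples. Tau tg 2 had 0 reads, which allows up to 2.51 RPM by counting error, and the groups overlapped. The log2 fold change of 0.62 ± 1.46 (limma adjusted p = 0.954) became -0.47 without Tau tg 1 and 2.51 without Tau tg 2.

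**Figure D1:**
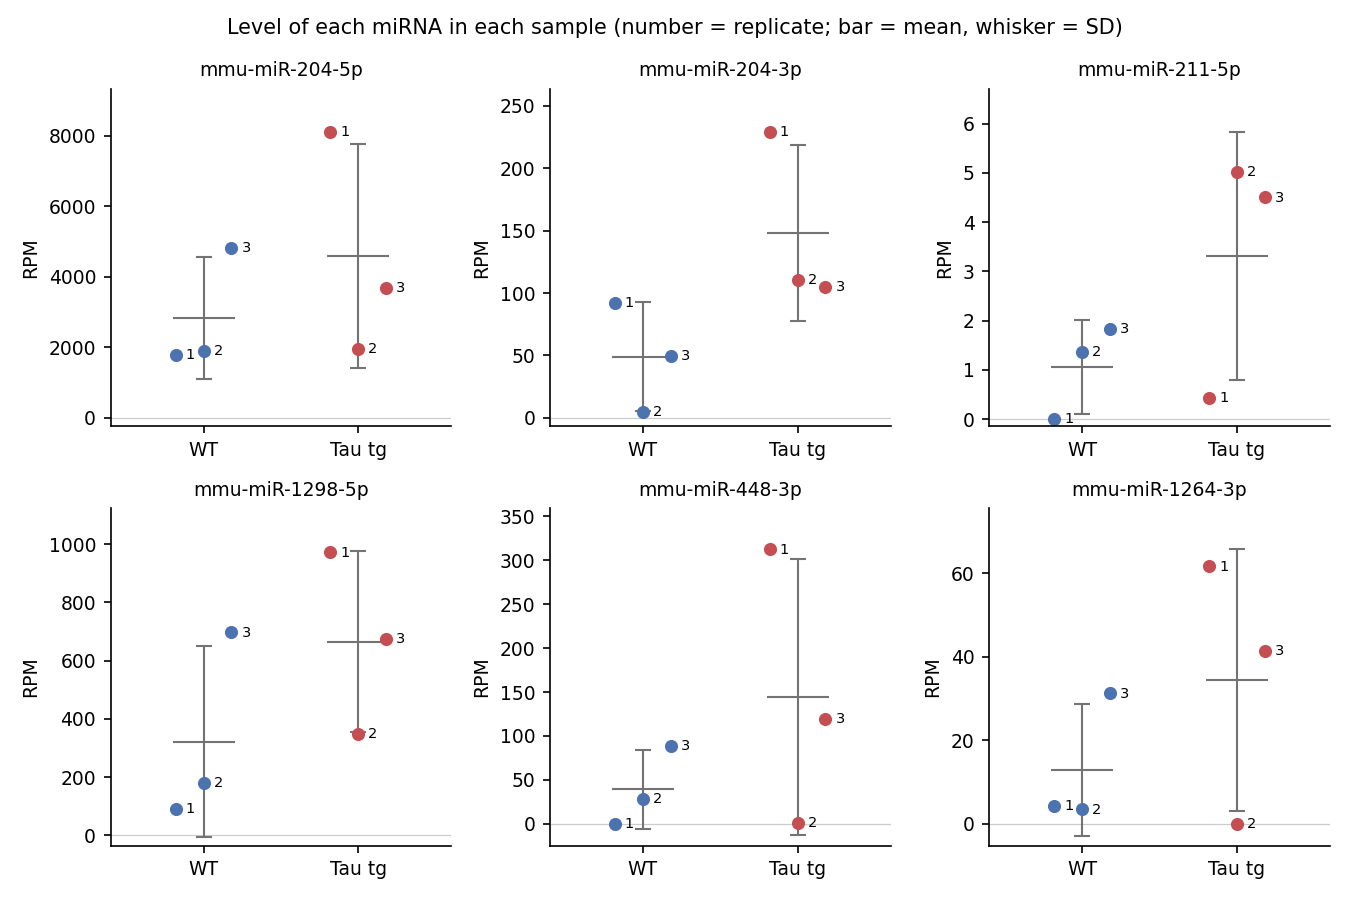
RPM of each of the 6 miRNAs (vertical axis, linear and different in each panel) in the 3 WT samples (blue) and the 3 Tau tg samples (red), with the mean as a horizontal bar and the SD as whiskers. Tau tg 1 was the highest sample for 5 of the 6 miRNAs and 0.427 RPM for mmu-miR-211-5p, and only mmu-miR-204-3p had all Tau tg values, from 105 to 229 RPM, above all WT values, from 4.75 to 92.3 RPM.

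Of the 6 miRNAs, 2 had a limma unadjusted p under 0.05, both with a higher level in Tau tg, against 2.03% of the 689 miRNAs tested. Neither had an unadjusted p under 0.05 in edgeR (0.0781 for mmu-miR-204-3p and 0.232 for mmu-miR-1298-5p), in DESeq2 (0.078 and 0.258), with quantile normalization (0.0673 and 0.0715) or in limma without the trend (0.0832 and 0.139), so the count was then 0 of 6. After adjustment 0 of 6 passed in limma, edgeR or DESeq2, and 0.0% of all miRNAs did so in limma. All 6 log2 fold changes, that of mmu-miR-211-5p among them, were above 0 with a median of 1.16, beside 438 above 0 and 251 below 0 and a median of 0.25 over all miRNAs. The 6 values are not independent of each other: both arms of Mir204 come from 1 transcript, and 3 miRNAs come from Htr2c. With median-of-ratios scaling, which brings the median of all miRNAs to 0.09, all 6 were still above 0.

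The level of the Htr2c miRNAs was also compared with that of mmu-miR-204-5p within each sample, a ratio that does not depend on the scaling. The 3 miRNAs together made 95.6, 211 and 817 RPM in the WT samples and 1346, 350 and 836 RPM in the Tau tg samples. Per 100 reads of mmu-miR-204-5p there were 5.34, 11.2 and 16.9 reads in WT 1, WT 2 and WT 3 and 16.6, 17.9 and 22.6 reads in Tau tg 1, Tau tg 2 and Tau tg 3. WT 1 and WT 2 were lowest, and WT 3 reached the Tau tg range. The difference of 7.89 reads between the group means was not significant (exact two-sided permutation p = 0.2, adjusted p = 0.667 over 5 measures, where 0.1 is the smallest p that 3 against 3 allows). It ran from 4.98 reads without WT 1 to 10.8 reads without WT 3.

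The levels of mmu-miR-204-5p and mmu-miR-1298-5p, whose host genes lie on different chromosomes, varied together across the samples. On log2(RPM + 1), mmu-miR-204-5p and mmu-miR-1298-5p had a Pearson r of 0.874 and put the 6 samples in the same order (Spearman rho = 1.0). Their exact permutation p was 0.00278 for both coefficients, or 0.0417 adjusted over 15 pairs. r was 0.835 without Tau tg 1 and WT 3, the samples farthest from the median.

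With mmu-miR-448-3p, r was 0.855 and rho 0.886 (exact permutation p = 0.0194 and 0.0333, adjusted p = 0.146 and 0.167). With mmu-miR-1264-3p, r was 0.869 and rho 0.714 (exact permutation p = 0.0389 and 0.136, adjusted p = 0.146 and 0.34). Without the same 2 samples, r was 0.785 and 0.829. These 2 pairs did not pass the adjustment over 15 pairs.

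The 6 pairs among mmu-miR-204-5p and the 3 miRNAs of Htr2c had a median r of 0.862, from 0.677 to 0.882. The lowest, 0.677, was that of mmu-miR-1298-5p with mmu-miR-1264-3p, whose hairpins share intron 3 (exact permutation adjusted p = 0.382). Within Htr2c, mmu-miR-448-3p had an r of 0.796 with mmu-miR-1298-5p and 0.882 with mmu-miR-1264-3p (exact permutation adjusted p = 0.3 and 0.146). No pair within Htr2c passed the adjustment. The 6 pairs were set apart with their values known and share members, so their median is a description. Over all 15 pairs the median was 0.439, with 12 above 0, and it was 0.05 over all pairs of the 476 miRNAs that averaged at least 10 RPM. Of those 113050 pairs, 2.59% had an r of at least 0.862, and the 90th percentile was 0.684. Much of each r came from 3 samples that were low, WT 1, WT 2 and Tau tg 2, against 3 that were high, and a relation within 3 samples could not be tested. The split did not follow the genotype: on deviations from the group means the median of the 6 pairs was 0.863. It ranged from 0.821 without Tau tg 1 to 0.934 without Tau tg 2.

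The remaining members did not share the pattern. mmu-miR-204-3p had an r of 0.490 with mmu-miR-204-5p, although both arms are cut from 1 hairpin, and between 0.056 and 0.439 with the Htr2c miRNAs. mmu-miR-211-5p had an r of -0.100 with mmu-miR-204-5p, and its reads were too few to rank the samples.

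The depth of the libraries moved with these levels in part: the deepest library, Tau tg 1, was also highest for mmu-miR-204-5p, while WT 3, the shallowest, was second. Over the 6 samples, Pearson's r of log2(RPM + 1) with the log2 number of reads was 0.614 for mmu-miR-204-5p, 0.347 for mmu-miR-1298-5p, 0.481 for mmu-miR-448-3p and 0.574 for mmu-miR-1264-3p. Spearman's rho was 0.2, 0.2, 0.486 and 0.657 in the same order. The part of depth in the agreement was not tested, and without Tau tg 1 the median r was 0.821 as above.

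**Figure D2:**
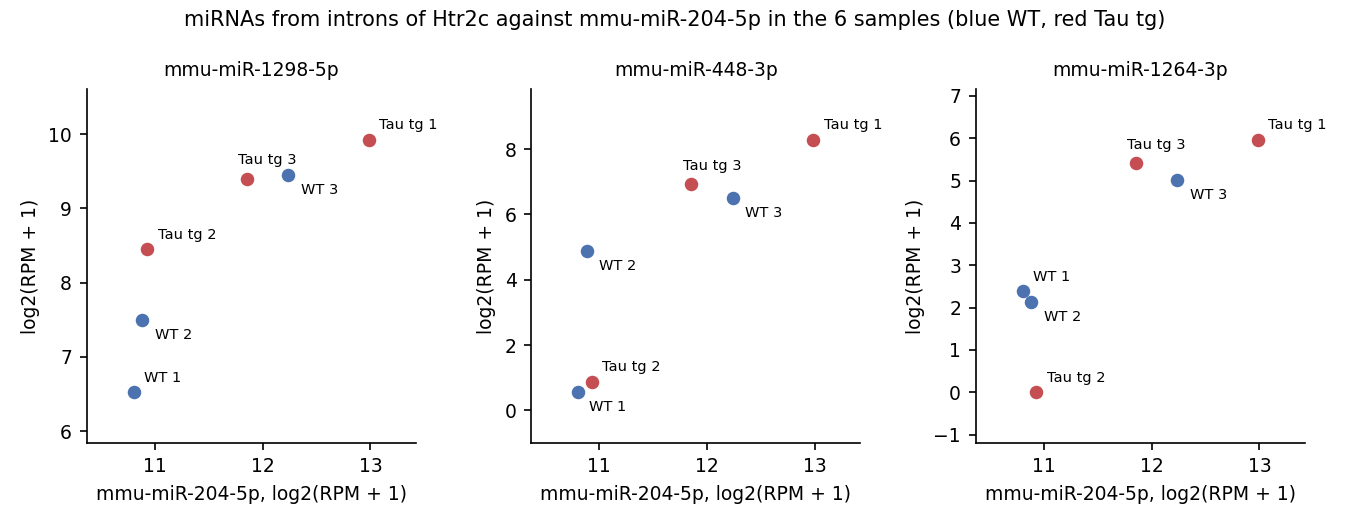
Log2(RPM + 1) of mmu-miR-1298-5p, mmu-miR-448-3p and mmu-miR-1264-3p (vertical axes, one panel each) against that of mmu-miR-204-5p (horizontal axis) in the 3 WT samples (blue) and the 3 Tau tg samples (red). WT 3, Tau tg 3 and Tau tg 1 lie at the upper right in each panel and WT 1, WT 2 and Tau tg 2 at the left, with r of 0.874, 0.855 and 0.869.

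Further arms listed for Trpm1 and Htr2c were looked for. Of 10 such arms, 7 were in the table, all from the Htr2c hairpins placed above. The arms not found were mmu-miR-211-3p and both arms of miR-1911, whose hairpin was not placed. Of the 7 found, 0 had a limma unadjusted p under 0.05, with 3 fold changes above 0 and 4 below and a median of -0.20. mmu-miR-448-5p measured 28.6, 37.3 and 47.7 RPM in the WT samples and 98.6, 86.1 and 87.1 RPM in the Tau tg samples. It was thus present in WT 1 and Tau tg 2, where mmu-miR-448-3p, the other arm, had 1 read each. Every Tau tg value lay above every WT value, as for 7.42% of miRNAs, with a log2 fold change of 1.27 ± 0.62 (limma adjusted p = 0.896). The 7 arms summed to between 97.4 and 262 RPM in WT and between 119 and 324 RPM in Tau tg, and WT 1 and Tau tg 2 were again the lowest of their groups.

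The label choroid plexus was set beside markers of cell types the tissue could hold. None of the miRNAs named here is known to be limited to choroid plexus cells, and mRNAs were not measured, so the source of these miRNAs could not be checked directly.

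miR-34b, miR-34c and miR-449 are known for multiciliated cells, among them the choroid plexus and the ependyma. Of 7 listed, 5 were in the table and 0 passed a limma unadjusted p under 0.05. All 5 fold changes were above 0, with a median of 0.71. The log2 fold change of mmu-miR-449a-5p, 0.82, came with 0.468 RPM in WT 1. Its mean RPM was lower in Tau tg (20.7) than in WT (23.1). The 5 miRNAs summed to 1212, 1147 and 1488 RPM in the WT samples and 3955, 1004 and 2633 RPM in the Tau tg samples. In this sum Tau tg 1 and Tau tg 3 were highest and WT 3 came next, the 3 samples that were also high in mmu-miR-204-5p. Among the single miRNAs, only mmu-miR-34b-3p had the same 3 highest samples. The most abundant, mmu-miR-34c-5p, measured 726, 371 and 608 RPM against 2708, 266 and 1543 RPM, with WT 1 above WT 3. mmu-miR-449a-5p was highest in WT 3, at 43.1 RPM, with 14.7 RPM in Tau tg 3.

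The miR-200 family, known for epithelia, went another way. All 5 members had fold changes below 0, 4 of them with a limma unadjusted p under 0.05 and 0 after adjustment, with sums of 3105 to 9831 RPM for WT and of 2274 to 2483 RPM for Tau tg. Their sum did not move with mmu-miR-204-5p (r = -0.04 over 6 samples). The part of either list in the levels of mmu-miR-204-5p was not tested.

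In the lists for neurons (5 miRNAs), oligodendrocytes (2), myeloid cells (3), endothelium (2), red blood cells (2) and pituitary (3), 0 miRNAs had a limma unadjusted p under 0.05. The neuronal miRNAs summed to between 142722 and 160128 RPM over the 6 samples. Single members of this list varied more and in both directions, with mmu-miR-124-3p between 47769 and 90278 RPM and mmu-miR-128-3p between 14221 and 42415 RPM. mmu-miR-9-5p measured 37676.7, 29427.0 and 29627.8 RPM in the WT samples and 44564.5, 48004.6 and 46351.2 RPM in the Tau tg samples. Its Tau tg values all lay above its WT values, with a log2 fold change of 0.53 (limma unadjusted p = 0.114, adjusted p = 0.896). Of the 5 fold changes, 4 were above 0 and 1, that of mmu-miR-124-3p, was below. The even sum thus does not show an even neuronal content.

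The miRNAs most alike to mmu-miR-204-5p among the other 471 with a mean of at least 10 RPM, the 6 miRNAs described here left out, were mmu-miR-188-3p, mmu-miR-376a-3p, mmu-miR-30e-5p, mmu-miR-383-3p and mmu-miR-34c-3p, with r from 0.903 down to 0.805 over the 6 samples. For the summed Htr2c miRNAs they were mmu-miR-34b-3p (r = 0.959), mmu-miR-101b-3p, mmu-miR-383-3p, mmu-miR-101a-3p and mmu-miR-8112 (r = 0.869). mmu-miR-34b-3p measured 83.4, 127 and 210 RPM in the WT samples and 235, 189 and 222 RPM in the Tau tg samples. mmu-miR-188-3p (0.903) and mmu-miR-376a-3p (0.899) lay above the r of mmu-miR-204-5p with each Htr2c miRNA described here, 0.855 to 0.874. For 6 samples and 471 candidates, values of this size are a description of likeness.

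The forms of each miRNA show where its reads began and ended. mmu-miR-204-5p came in 101 sequences of 18 to 26 nt, 53 of which began at the reference 5′ end and 25 of which matched the hairpin without a change. The 5 most abundant differed only at the 3′ end. They are shown with bases outside the mature miRNA in capitals, as are the most abundant form with a shifted 5′ end and its new seed at positions 2 to 8.
form 1 of mmu-miR-204-5p: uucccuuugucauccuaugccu
form 2 of mmu-miR-204-5p: uucccuuugucauccuaugccuG
form 3 of mmu-miR-204-5p: uucccuuugucauccuaugccuGU
form 4 of mmu-miR-204-5p: uucccuuugucauccuaugcc
form 5 of mmu-miR-204-5p: uucccuuugucauccuaugc
shifted form of mmu-miR-204-5p, seed in capitals: cUUUGUCAuccuaugccu

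Form 1, the reference itself, measured 1210, 1448 and 3466 RPM in the WT samples and 5570 (Tau tg 1), 1402 and 2582 RPM in the Tau tg samples. Form 2 carries the next base of the hairpin and measured 218, 137 and 632 RPM against 1138, 176 and 487 RPM. Tau tg 1 and WT 3 were the highest samples for both. Form 3 adds a U that the hairpin does not have, and it measured 52.0, 100 and 165 RPM against 314, 66.9 and 177 RPM. Form 4 lacks the last base and measured between 58.3 and 204 RPM over the 6 samples. The groups overlapped in each of these 4 forms. The log2 fold changes of forms 1 to 4 were 0.58, 0.79, 0.70 and 0.31, and without Tau tg 1 they were 0.06, 0.14, 0.19 and -0.11.

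Form 5 lacks the last 2 bases and measured 49.7, 22.4 and 43.1 RPM in the WT samples and 115, 53.5 and 55.2 RPM in the Tau tg samples. The shifted form, 18 nt long, lacks the first 4 bases and measured 41.2, 4.07 and 35.8 RPM against 110, 68.6 and 42.1 RPM. It was shorter than the size range that the labels give for the selected RNA, 19 to 35 nt. In these 2 forms every Tau tg value lay above every WT value. They were 2 of the 23 sequences of the 6 miRNAs that were above 0 in all samples, beside 5.86% of the 5832 such sequences in the table. The limma unadjusted p was 0.208 for form 5 and 0.0203 for the shifted form, and both had an adjusted p of 0.584. The log2 fold change of the shifted form was 1.80, and 0.81 without WT 2 (limma unadjusted p = 0.287); that of form 5 was 0.92, and 0.57 without Tau tg 1.

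The shares of reads with a reference end or an exact match to the hairpin varied little between samples. Reads of mmu-miR-204-5p that began at the reference 5′ end made up 94.6%, 99.2% and 97.0% in the WT samples and 95.8%, 94.3% and 96.3% in the Tau tg samples. The means were 96.9% ± 2.35 and 95.5% ± 1.01 (SD, n = 3 each; exact permutation p = 0.4, adjusted p = 0.667). Those that ended at the reference 3′ end made up from 71.6% in WT 1 to 78.0% in WT 2, with group means of 75.2% ± 3.3 and 74.7% ± 2.32 (exact permutation p = 0.9, adjusted p = 0.9). Those that matched the hairpin exactly made up 91.4% ± 1.25 and 91.8% ± 2.19 (exact permutation p = 0.8, adjusted p = 0.9). None of these 3 shares differed by more than the spread between samples.

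The 3p arm of Mir204 took 4.91%, 0.25% and 1.02% of the reads of both arms in the WT samples and 2.75%, 5.35% and 2.76% in the Tau tg samples. WT 2 stood lowest, with 7 of 2799 reads (95% Wilson interval 0.121% to 0.515%), and its interval did not reach that of any other sample, the nearest being WT 3 at 0.78% to 1.32%. The highest values were WT 1 and Tau tg 2, so the groups overlapped. The means were 2.06% ± 2.50 and 3.62% ± 1.5 (SD, n = 3 each; exact permutation p = 0.4, adjusted p = 0.667). The difference of 1.56 percentage points ran from 0.66 without WT 2 to 2.98 without WT 1.

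The 3′ ends of mmu-miR-1298-5p ranged widely, and its 2 main forms, both with the reference seed, changed places between samples. They are shown because the reference form had the lowest p-value among all forms of the 6 miRNAs.
short form of mmu-miR-1298-5p: uucauucggcuguccagaugu
reference form of mmu-miR-1298-5p: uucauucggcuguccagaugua
The short form, which lacks the last base, measured 14.5, 77.9 and 334 RPM in the WT samples and 276, 167 and 292 RPM in the Tau tg samples. The reference form measured 33.3, 5.42 and 215 RPM against 535, 82.0 and 225 RPM, with only 8 reads in WT 2. WT 3 lay within the Tau tg range for the reference form and above it for the short form. The log2 fold changes were 1.68 ± 0.62 and 2.57 ± 0.67, with limma unadjusted p = 0.00697 and 0.000117 and adjusted p = 0.584 and 0.154. The short form fell to 0.56 without WT 1 (limma unadjusted p = 0.361) and rose to 2.77 without WT 3, and it was 0.83 in edgeR (unadjusted p = 0.187) and 0.55 in DESeq2 (unadjusted p = 0.737). The reference form, picked by its p-value, was not followed under these settings.

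Reads that ended at the reference 3′ end made up 37.1%, 3.02% and 30.8% of mmu-miR-1298-5p in the WT samples and 59.3%, 23.5% and 33.4% in the Tau tg samples. Reads with extra bases made up 46.9%, 53.2% and 21.2% against 9.78%, 26.6% and 17.9%. WT 1 and WT 2, the samples with the fewest reads (194 and 265), had the largest shares of longer reads. These shares were described without a test.

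**Figure D3:**
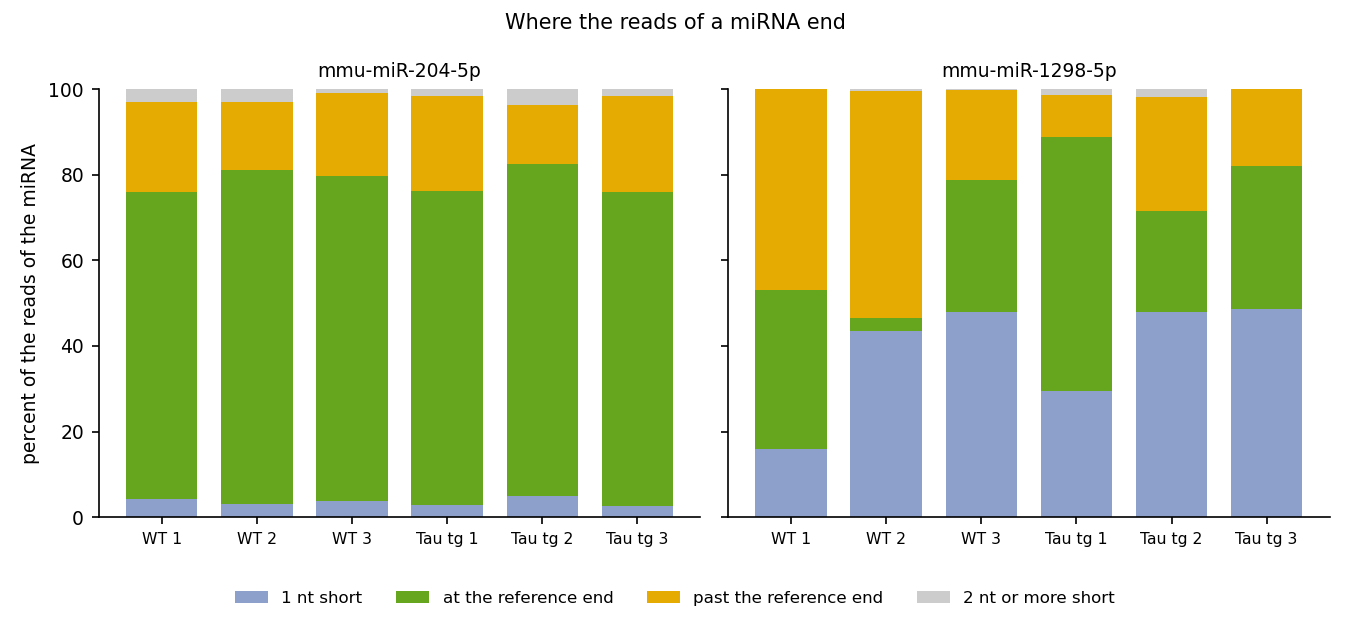
Percent of the reads of mmu-miR-204-5p (left) and mmu-miR-1298-5p (right) that ended 1 nt short of the reference 3′ end, at it, past it, or 2 nt or more short of it, stacked for each of the 6 samples. Reads at the reference end stayed between 71.6% and 78.0% for mmu-miR-204-5p and ran from 3.02% to 59.3% for mmu-miR-1298-5p.

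The other miRNAs had few forms. mmu-miR-204-3p came in 11 sequences, 10 with the reference 5′ end. Its most abundant form was the reference, with 73.5, 2.03 and 37.6 RPM in the WT samples and 144, 46.8 and 70.8 RPM in the Tau tg samples. WT 1 lay within the Tau tg range for this form, although it lay below it for the whole arm (limma unadjusted p = 0.011, adjusted p = 0.584), and its log2 fold change of 1.94 became 0.56 without WT 2. A form that lacks the last base measured 7.96, 0.678 and 0 RPM against 35.0, 30.1 and 7.36 RPM (limma unadjusted p = 0.00334, adjusted p = 0.584), and here too WT 1 lay within the Tau tg range. mmu-miR-211-5p came in 1 sequence, the reference itself.

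mmu-miR-448-3p came in 16 sequences, led by a form that lacks the last base. It measured 0.468, 2.03 and 37.6 RPM in the WT samples and 105, 0 and 43.4 RPM in the Tau tg samples. The reference form was at 0, 0 and 14.7 RPM against 83.4, 0.836 and 53.2 RPM (limma unadjusted p = 0.00425, adjusted p = 0.584), so WT 3 again lay between the Tau tg samples. In WT 2, 7.14% of the 42 reads of mmu-miR-448-3p matched the hairpin exactly, against 84.5% of 97 reads in WT 3, 69.8% of 2194 reads in Tau tg 1 and 80.5% of 293 reads in Tau tg 3. Most of the WT 2 reads, 25.7 of 28.5 RPM, were 1 form with an A in place of the last base.
changed form of mmu-miR-448-3p: uugcauauguaggaugucccaa
This form was at 0 in WT 1, WT 3 and Tau tg 2, at 15.9 RPM in Tau tg 1 and at 0.409 RPM in Tau tg 3, so the level of mmu-miR-448-3p in WT 2 rested on a form that was rare elsewhere.

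mmu-miR-1264-3p came in 8 sequences. The reference form measured 4.22, 3.39 and 17.4 RPM in the WT samples and 52.2, 0 and 31.9 RPM in the Tau tg samples (limma adjusted p = 0.653). In WT 3, 55.9% of 34 reads began at the reference 5′ end, the lowest share of the 5 samples with reads, and forms 1 and 2 bases longer at the 5′ end made up the rest.
1 base longer: aCAAAUCUuauuugagcaccugu
2 bases longer: aACAAAUCuuauuugagcaccugu
Their seeds, in capitals, differ from the reference seed.

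Of the 166 sequences, 87 had a mean of at least 1 RPM and could be tested. Of these, 6 had a limma unadjusted p under 0.05, all with a higher level in Tau tg, beside 1.44% of the 36070 sequences tested, and 0 passed the adjustment, beside 0.0277% of all. Fold changes were above 0 for 71 and below 0 for 16 with a median of 0.87, beside 17060 above 0 and 19010 below 0 and a median of -0.16 over all sequences. Of all sequences with an unadjusted p under 0.05, 64.6% were higher in Tau tg in limma, 13.9% in edgeR and 7.78% in DESeq2. Forms of 1 miRNA share its molecules and its samples, and low forms entered the test through the samples in which they were high, so these counts are a description.

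The study assigns each 6mer seed, positions 2 to 7, a viability: the percentage of cells that survive a short RNA with this seed, averaged over 3 murine cell lines. Toxic seeds have low values. The reference seed of mmu-miR-204-5p and mmu-miR-211-5p, UCCCUU, has a viability of 96.5% and that of mmu-miR-448-3p, UGCAUA, has 94.7%. mmu-miR-1264-3p (AAAUCU) has 87.2% and mmu-miR-1298-5p (UCAUUC) 57.9%. mmu-miR-204-3p (CUGGGA) has the lowest, 35.7%. The 2 arms of Mir204 thus carry the least and the most toxic seed of the set.

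Shifts of the 5′ end changed the seed of mmu-miR-204-5p little in sum, and that of mmu-miR-1264-3p more. The reference seed of mmu-miR-1264-3p made up 55.9% in WT 3, where it had 34 reads, and 83.2% in Tau tg 3. In these samples CAAAUC, with a viability of 53.3%, made up 20.6% and 16.8%. The seed UCCCUU made up between 94.0% and 98.6% of mmu-miR-204-5p, and the seed of the shifted form, UUUGUC with a viability of 74.9%, between 0.29% in WT 2 and 3.51% in Tau tg 2. Of all reads in the table with the seed UCCCUU, mmu-miR-204-5p supplied between 93.8% in WT 2 and 99.0% in Tau tg 1, and mmu-miR-211-5p at most 0.27%. The remainder was not annotated as a miRNA.

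Under other settings the direction of 4 miRNAs was the same, and 2 changed it. Over 17 or 18 settings, the log2 fold change of mmu-miR-204-5p ranged from 0.08 to 1.11, that of mmu-miR-204-3p from 1.02 to 3.03, that of mmu-miR-1298-5p from 0.77 to 2.25 and that of mmu-miR-211-5p from 0.00 to 1.82. mmu-miR-448-3p ranged from -0.32 to 3.63 and mmu-miR-1264-3p from -0.47 to 2.51. The lowest adjusted p of any setting was 0.177 (limma), for mmu-miR-1298-5p without WT 3.

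**Figure D4:**
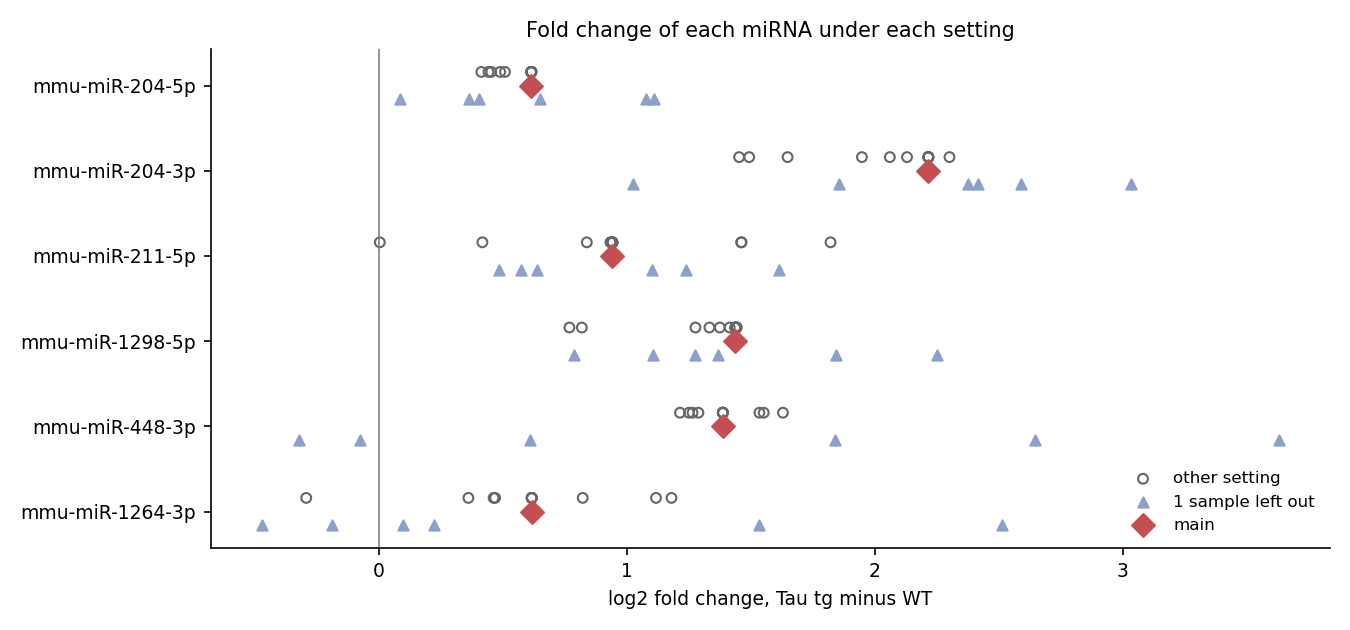
Log2 fold change of Tau tg over WT (horizontal axis) of each of the 6 miRNAs in the main test (diamonds), with 1 sample left out (triangles) and under the other settings for pseudocount, filter, scaling and tool (circles). mmu-miR-204-3p and mmu-miR-1298-5p stayed above 0.7 throughout, and mmu-miR-448-3p and mmu-miR-1264-3p fell on both sides of 0.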

How the data were processed

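Ago-bound short RNAs of 3 WT and 3 Tau tg mice were analysed. The sample titles gave groups and replicate numbers. According to the labels and methods, Ago proteins were pulled down with a GW182-derived peptide, RNA was selected on gels and libraries were sequenced on an Illumina instrument. The authors trimmed reads (Trim Galore in their processing notes), compiled unique sequences, removed rare reads, annotated them with BLAST and removed artificial sequences in the SPOROS pipeline. The deposited values are RPM scaled by the authors to the reads of each sample, and low values are incomplete because rare reads were removed. The authors' deposited total is a signal summed over samples, used only in the closing section. The viability score is used as deposited by the authors. Annotation names refer to mm9; positions come from GENCODE M21 and RefSeq tables of GRCm38.

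The 6 miRNAs and all lists were chosen with earlier results of these data known. All RPM values were whole multiples of 1 read (100% within 0.002 RPM), so reads were recovered, 998248 to 6879551 per sample; intervals and floors cover counting error only. Sequences were summed per mature miRNA, and forms were placed on the hairpins without gaps. All miRNAs, and separately all sequences, were filtered at a mean of 1 RPM and tested on log2(RPM + 1) with limma 3.58.1 (mean-variance trend, two-sided), with Benjamini-Hochberg adjustment over all of them; this scale understates the change of low rows. Shares were compared with exact permutation tests over 20 assignments, and pairs of miRNAs over 720 pairings. Named were the 6 miRNAs, the most abundant form of each (5 and the leading 5′-shifted form for mmu-miR-204-5p), and the 5 miRNAs most alike. Other forms, and mmu-miR-448-5p, mmu-miR-1298-3p and mmu-miR-9-5p, were named after their values were seen. Alternatives were pseudocounts of 0.1 and 5, a minimum mean of 10 RPM or none, scaling by median of ratios, by quantiles or to the miRNA reads alone, limma with no trend, count models on the recovered reads (DESeq2 1.42.0, edgeR 4.0.16), the replicate block, leaving out ambiguous reads or each sample and, for shares, reads of at least 18 nt or forms with at least 3 reads. Both edgeR and limma were tested on simulated data. Software: Python 3.11.15 with SciPy 1.17.1, pandas 2.3.3, Matplotlib 3.10.9 and NumPy 2.4.6, and R 4.3.3. A replicate is 1 mouse per the study's methods, while the labels do not name the animals.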

Additional observations from a re-analysis of the deposited data

Results flagged for a closer look

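The deposited totals held a signal outside the columns used here. Summed over all rows they were above the sum of the 6 samples by 1955876.5 RPM, while single sequences, such as the one of mmu-miR-211-5p, had no excess. The excess was 192 RPM for mmu-miR-1298-5p, 93.6 RPM for mmu-miR-204-5p and 5.12 RPM for mmu-miR-204-3p. The samples behind it were not analysed here.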

How the results depend on the processing

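With 3 samples a group and a spread of several-fold within each group, only changes far beyond that spread could pass the adjusted test, and miRNAs near the floor of 3 reads cannot be ranked. The count of miRNAs with a limma unadjusted p under 0.05 was 25 (56.0% of them higher in Tau tg) and ran from 18 to 50 with 1 sample left out, the highest without WT 1; the share higher was 40.0% with median-of-ratios scaling, 29.2% with quantile normalization, 73.5% without the trend, 21.4% in edgeR and 37.8% in DESeq2, 74.0% without WT 1, 71.0% without Tau tg 2, 72.2% without Tau tg 3 and 44.0% when scaled to the miRNA reads alone. After adjustment DESeq2 called 5 miRNAs, none of the 6 described, and leaving out 1 sample gave 0 to 1. Of sequences, 803 had an unadjusted p under 0.05, against 429 with a pseudocount of 5, 167 with a mean of at least 10 RPM, 2564 in edgeR, 3344 in DESeq2 and 531 to 942 with 1 sample left out (the lowest without Tau tg 2). After adjustment limma called 10 sequences, against 16 and 0 with pseudocounts of 0.1 and 5, 4 with no filter, 0 with at least 10 RPM, 6 with quantile normalization, 1 without the trend, 49 in edgeR, 459 in DESeq2 and 0 to 17 with 1 sample left out. The replicate numbers did not pair the samples (correlations of deviations -0.002, -0.069 and 0.041); with the replicate block 22 sequences and 0 miRNAs passed the adjustment, and 22 miRNAs had an unadjusted p under 0.05.

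Directions turned in these cases, and the cause was not tested. With a pseudocount of 0.1, mmu-miR-1264-3p had a log2 fold change of -0.29 and its reference form -0.22. With 1 sample left out, mmu-miR-1264-3p ran from -0.47 to 2.51, its reference form from -0.39 to 2.48, mmu-miR-448-3p from -0.32 to 3.63 and form 4 of mmu-miR-204-5p from -0.11 to 0.77. The Tau tg minus WT difference ran from -2.38 to 0.83 percentage points for reads of mmu-miR-204-5p ending at the reference 3′ end and from -0.85 to 1.19 for reads matching the hairpin. The median r over all 15 pairs of the miRNAs, 0.439, was 0.293 on deviations from the group means and 0.344 to 0.627 with 1 sample left out. A filter of 10 RPM removed mmu-miR-211-5p.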
